A study of Mus musculus with 12 samples.

Results

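The genes described here encode P-selectin (Selp) and E-selectin (Sele), the selectin ligands PSGL-1 (Selplg) and CD44 (Cd44), and enzymes that build the sugars selectins bind (Fut4, Fut7, St3gal4 and Gcnt1). They were taken as every non-control array probe that the scanner files name for one of these 8 genes, which gave 8 of 31093 gene names and 16 of 39429 probes. The set was put forward with earlier results of these arrays in view, in which Selp was selected on its difference between G-CSF blood and marrow. RNA of LSK cells, the Lin- Sca-1+ Kit+ fraction of mouse haematopoietic stem and progenitor cells, was measured on 12 single-colour Agilent arrays from male DBA2/J mice, with 3 arrays per group. G-CSF blood LSK cells came from peripheral blood after 5 days of granulocyte colony-stimulating factor given in 9 injections. AMD3100 blood LSK cells came from blood 1 hour after AMD3100, a blocker of the chemokine receptor CXCR4. CWHM-823+tGro-b blood LSK cells came from blood after an inhibitor of the integrin VLA-4 and a truncated form of the CXCR2 ligand Gro-beta, with no time stated. PBS marrow LSK cells came from bone marrow of mice injected with PBS and are the controls of all 3 blood groups. No blood of PBS-injected mice was on these arrays, so a difference from marrow joins the effect of a treatment with that of the tissue. Nothing in the labels ties the 3 arrays of 1 group to different mice, and the p-values here measure only the spread between the samples, which may be technical.

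Selectins are lectins that let blood cells tether to and roll on vessel walls. P-selectin is stored in platelets and endothelium, and E-selectin is made by activated endothelium. Both bind sialylated and fucosylated glycans carried by proteins such as PSGL-1 and CD44. In bone marrow, endothelial P-selectin and E-selectin take part in the homing of progenitors, and CD44 also binds hyaluronan.

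The Selp probe and 3 Cd44 probes are printed because the largest differences of the members rest on them. Positions are in mm9, as the scanner files give them, and bases run from 5′ to 3′. No exon annotation of mm9 was used here, so exon, intron or UTR is not assigned. The Selp probe A_51_P211854 lies at chr1:166079660-166079719 on the plus strand and is given by its first 30 bases.
Selp A_51_P211854: atgcctgctttaagatctcctgggtcttcc
The Cd44 probes lie on the minus strand of chromosome 2 and start at bases 1777, 1965, 2614 and 5494 of the transcript that the array design names. A_55_P2166488 is at chr2:102677971-102678030, A_55_P2166486 at chr2:102672645-102672704, A_55_P2166501 at chr2:102654278-102654337 and A_55_P2064043 at chr2:102651398-102651457. The first 2 are printed whole and the third by its first 30 bases.
Cd44 A_55_P2166488: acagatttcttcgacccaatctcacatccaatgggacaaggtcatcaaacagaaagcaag
Cd44 A_55_P2166486: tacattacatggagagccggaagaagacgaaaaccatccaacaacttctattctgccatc
Cd44 A_55_P2166501: gacgagacccggaatctgcagagtgtggac
The first pair is 188 bases apart in the transcript and 5326 bases apart in the genome, and the second pair 649 and 18367 bases. The last pair is 2880 bases apart in both, so no intron separates those probes. Cd44 RNA is known to be spliced into forms that differ in variable exons, and each probe reports only the forms that hold its stretch.

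Levels are log2 processed signal minus the 75th percentile of the array's probes, so 0 is the 75th percentile and levels of different probes are not compared. Of the 16 probes, 15 passed the filter on dim probes (well above background on every array of 1 group or more) and entered the fit of 29495 probes, in which 14 were tested and Selp is described only. Across the arrays, 70.7% to 83.3% of probes were above background and 0 were saturated, and the number of arrays, 3 per group, limits the precision. Of the 11 LSK marker genes, 11 were above background on all arrays of G-CSF blood, CWHM-823+tGro-b blood and PBS marrow, and 10 on all arrays of AMD3100 blood, where Slamf1 was above background on 0 of 3. Their levels differed between groups in both directions. Ly6a, the Sca-1 gene, read 0.81, 0.61 and 0.69 in G-CSF blood and -0.97, -0.76 and -1.1 in PBS marrow. Hlf read 1.26, 1.14 and 1.04 in G-CSF blood and 2.69, 2.33 and 1.97 in PBS marrow. Whether the make-up of the sorted fraction differed was not tested. One marrow array stood apart. Neutrophil markers summed to 1.54 to 3.26 times the array's 75th percentile over the 9 blood arrays. On PBS marrow replicate 3 they summed to 31.4 times, and some of the differences from marrow are also given without this array. The median difference over all tested probes was -0.21 (log2) for G-CSF blood over PBS marrow, 0.07 for AMD3100 blood over PBS marrow and -0.04 for CWHM-823+tGro-b blood over PBS marrow. It was -0.24 for G-CSF blood over AMD3100 blood and -0.10 for both other comparisons between blood groups.

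Selp, the P-selectin gene, was higher in all 3 blood groups than in PBS marrow, and far higher in G-CSF blood than in the other groups. Its levels were 1.74, 1.37 and 1.48 in G-CSF blood, -1.95, -2.01 and -1.71 in AMD3100 blood, -1.75, -1.83 and -2.54 in CWHM-823+tGro-b blood, and -3.68, -3.24 and -3.34 in PBS marrow. No blood array overlapped with marrow, G-CSF blood overlapped with no other group, and the AMD3100 and CWHM-823+tGro-b arrays overlapped with each other. The probe was above background on 12 of 12 arrays, and each value averages 9 or 10 spots whose SD was 0.0386 to 0.215 (log2).

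**Figure D1:**
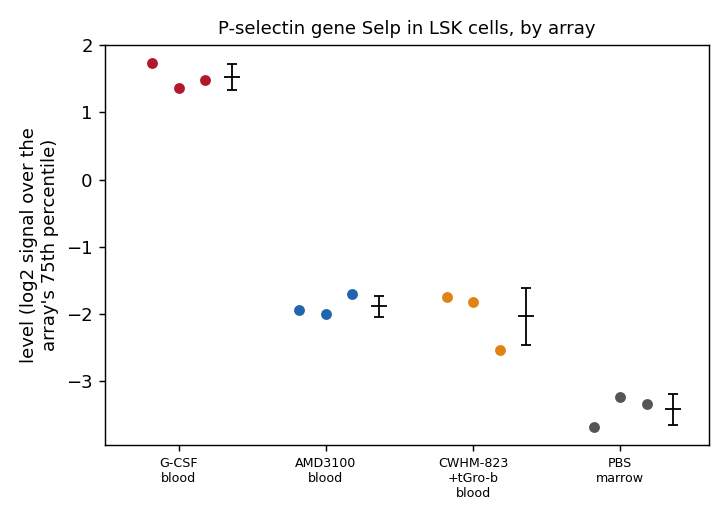
Level of Selp on each array (vertical axis, log2 signal over the array's 75th percentile) in the 4 groups, with the mean and SD of 3 arrays beside the points. The 3 G-CSF arrays lie between 1.37 and 1.74, above all others, and the marrow arrays lie lowest, between -3.68 and -3.24.

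Selp's differences are a description with no test, because such a difference chose the gene. The SE and interval printed for Selp do not allow for that choice and are not read as a test. G-CSF blood averaged 1.53 ± 0.19 and PBS marrow -3.42 ± 0.23 (SD, n = 3 each), a difference of 4.95 ± 0.26 (SE), or 30.8-fold. AMD3100 blood averaged -1.89 ± 0.16, which is 1.53 above marrow (2.89-fold), and CWHM-823+tGro-b blood averaged -2.04 ± 0.43, which is 1.38 above marrow (2.60-fold). These 3 differences share the same marrow arrays. G-CSF blood lay 3.42 above AMD3100 blood and 3.57 above CWHM-823+tGro-b blood, while CWHM-823+tGro-b blood differed from AMD3100 blood by -0.15, with a 95% interval of -0.72 to 0.42. Within the 3 slides, each of which held 1 array per group, G-CSF blood over PBS marrow was 5.42, 4.60 and 4.81. Without PBS marrow replicate 3 the difference was 4.99. A normexp background correction gave smaller differences from marrow: 3.76 for G-CSF blood, 0.89 for AMD3100 blood and 0.73 for CWHM-823+tGro-b blood.

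Markers of the cell types that store or make P-selectin were set beside these values. The 13 platelet and megakaryocyte markers summed to 5.77 to 10.2 times the array's 75th percentile in G-CSF blood, 11.0 to 13.4 times in AMD3100 blood, 8.74 to 12.0 times in CWHM-823+tGro-b blood and 9.83 to 13.4 times in PBS marrow. Of these 13 genes, 10 were above background on all arrays in each group. Gp1ba, a subunit of the platelet von Willebrand factor receptor, was above background on 0 arrays of any group. Ppbp, a platelet alpha-granule chemokine, was above background on 0 blood arrays and on 1 of 3 marrow arrays. The markers Itga2b, Treml1 and Clec1b were above background on all arrays of every group. The 14 endothelial markers summed to 13.1 to 15.2 times in G-CSF blood, 11.1 to 12.4 times in AMD3100 blood, and 11.1 to 13.8 times over the 9 arrays of the 3 groups other than G-CSF blood. Of these, 11 were above background on all arrays of G-CSF blood, CWHM-823+tGro-b blood and PBS marrow, and 12 on all of AMD3100 blood. Cdh5, the endothelial cadherin, was above background on 0 of 3 G-CSF, 0 of 3 AMD3100, 1 of 3 CWHM-823+tGro-b and 1 of 3 marrow arrays. Pecam1 and Flt1 were above background on all arrays of every group. Pecam1 read 0.79, 0.63 and 0.88 in G-CSF blood and 0.24, -0.05 and -0.24 in PBS marrow. Flt1 went the other way, with -1.96, -1.99 and -2.15 in G-CSF blood and -1.68, -1.44 and -1.64 in PBS marrow. The part of platelet or endothelial RNA in the Selp values was not tested. In sorted cells taken in bulk, fewer cells with a transcript and less of it per cell cannot be told apart.

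The genes whose levels followed Selp most closely over the 12 arrays, by Pearson r, were Col18a1 (r = 0.997), Anxa2 (r = 0.989), S100a4 (r = 0.979), Pmaip1 (r = 0.975) and Mrgpra2b (r = 0.975). They are given with no p, since the 12 arrays share groups and slides. Col18a1, which encodes a collagen chain, averaged 1.51 in G-CSF blood, -1.61 in AMD3100 blood, -2.07 in CWHM-823+tGro-b blood and -3.15 in PBS marrow. The order of the groups was the same as for Selp, which is no separate result, since the gene was picked by its correlation with Selp.

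The 300 bases around the Selp start are shown because Selp had the widest range among the members. The window is chr1:164115014-164115313 on the plus strand of GRCm38.p6, from RefSeq, and holds 250 bases before the start and 50 after it. Both strands were searched for TTCNNNGAA (STAT), GATAA (GATA), an NF-kB pattern with 5 free bases in its middle, GCGNGGGCG (EGR) and TGANTCA (AP-1), and matches are in capitals.
Selp promoter window: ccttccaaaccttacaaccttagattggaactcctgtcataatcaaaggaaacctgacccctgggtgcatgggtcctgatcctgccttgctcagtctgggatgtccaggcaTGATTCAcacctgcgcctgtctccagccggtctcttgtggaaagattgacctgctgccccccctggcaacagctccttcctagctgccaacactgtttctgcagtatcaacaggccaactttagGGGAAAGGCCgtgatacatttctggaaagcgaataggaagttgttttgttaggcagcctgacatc
The AP-1 letters were found once, starting at base 112, and those of NF-kB once, starting at base 236, and the matches do not overlap. Of 32851 RefSeq promoter windows, 7.81% held the AP-1 letters and 50.8% the NF-kB letters. The STAT, GATA and EGR letters had 0 matches in this window, against 8.30%, 25.4% and 5.55% of all windows. Windows were matched for 7 of the 8 genes, and Selplg was not matched.

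Sele, the E-selectin gene, was above background on 1 of 12 arrays, replicate 2 of G-CSF blood, and was therefore not tested. Its probe A_51_P455326 (chr1:165987726-165987785, plus strand) read -5.21, -3.39 and -6.75 in G-CSF blood, -5.63, -6.09 and -5.31 in AMD3100 blood, -6.30, -5.10 and -6.34 in CWHM-823+tGro-b blood and -4.07, -4.84 and -6.13 in PBS marrow. These levels overlapped between all groups, and no fold is given.

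Cd44, the hyaluronan receptor and selectin ligand, was higher in blood than in marrow LSK cells at 3 of its 4 probes in each blood group, although not every one of these differences passed the test (limma, adjusted p under 0.05). At those 3 probes no blood group overlapped with marrow, where 25.5% of all tested probes did not overlap for G-CSF blood, 26.3% for AMD3100 blood and 10.1% for CWHM-823+tGro-b blood. At the most 5′ probe, A_55_P2166488, levels were 0.07, 0.00 and 0.52 in G-CSF blood, 1.30, 0.36 and 1.18 in AMD3100 blood, 1.73, 1.16 and 1.87 in CWHM-823+tGro-b blood and -1.23, -1.86 and -2.12 in PBS marrow. All blood arrays lay above all marrow arrays, and the G-CSF arrays lay below those of CWHM-823+tGro-b. Cd44 A_55_P2166488 rose by 3.32 ± 0.34 (SE) in CWHM-823+tGro-b blood over PBS marrow (9.97-fold, limma adjusted p = 0.000428). It rose by 2.68 in AMD3100 blood (limma adjusted p = 0.00357) and by 1.93 in G-CSF blood (limma adjusted p = 0.0120). With any 1 array left out, the CWHM-823+tGro-b difference was 3.13 to 3.57 and the AMD3100 difference 2.49 to 2.97, and both passed. Without PBS marrow replicate 3, the G-CSF difference was 1.74 (limma adjusted p = 0.0528). It also missed the threshold without PBS marrow replicate 2 (1.87, limma adjusted p = 0.0622) and without G-CSF blood replicate 3 (1.77, limma adjusted p = 0.0646).

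At A_55_P2166486, the next probe, levels were 0.39, 0.38 and 0.07 in G-CSF blood, 0.82, 0.85 and 1.13 in AMD3100 blood, 2.02, 1.66 and 1.86 in CWHM-823+tGro-b blood and -0.53, -0.65 and -1.5 in PBS marrow. The 4 groups did not overlap at this probe, with CWHM-823+tGro-b blood highest and PBS marrow lowest. Cd44 A_55_P2166486 rose by 2.74 ± 0.28 (SE) in CWHM-823+tGro-b blood over PBS marrow (limma adjusted p = 0.000428) and by 1.82 in AMD3100 blood (limma adjusted p = 0.0101). The difference of 1.17 in G-CSF blood did not pass (limma adjusted p = 0.0568) and passed with the slide as a block (limma adjusted p = 0.0198). Without PBS marrow replicate 3 the 3 differences from marrow were 2.43 for CWHM-823+tGro-b blood, 1.52 for AMD3100 blood and 0.87 for G-CSF blood.

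At A_55_P2166501, levels were 3.6, 3.14 and 3.80 in G-CSF blood, 3.10, 2.91 and 3.41 in AMD3100 blood, 3.31, 2.75 and 3.21 in CWHM-823+tGro-b blood and 1.68, 1.47 and 1.94 in PBS marrow. The 3 blood groups overlapped with each other, and none overlapped with marrow. Cd44 A_55_P2166501 rose by 1.82 ± 0.27 (SE) in G-CSF blood over PBS marrow (limma adjusted p = 0.00411) and by 1.45 in AMD3100 blood (limma adjusted p = 0.0245). The difference of 1.39 in CWHM-823+tGro-b blood did not pass (limma adjusted p = 0.0534) and passed with the slide as a block (limma adjusted p = 0.00255). The AMD3100 call was lost without AMD3100 blood replicate 1 or 3 and without PBS marrow replicate 1 or 2 (limma adjusted p = 0.0780, 0.0535, 0.101 and 0.104), with differences of 1.47, 1.31, 1.44 and 1.33.

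At the most 3′ probe, A_55_P2064043, levels were 4.70, 5.59 and 4.82 in G-CSF blood, 5.78, 6.04 and 5.54 in AMD3100 blood, 4.82, 5.56 and 5.30 in CWHM-823+tGro-b blood and 5.21, 5.81 and 5.51 in PBS marrow. All 4 groups overlapped here. The differences from marrow were -0.48 in G-CSF blood, 0.27 in AMD3100 blood and -0.28 in CWHM-823+tGro-b blood, and none passed (limma adjusted p = 0.377, 0.654 and 1.00). The AMD3100 difference was -0.06 under quantile normalization. The 95% intervals were -1.14 to 0.19, -0.39 to 0.94 and -0.95 to 0.38 (log2). Whether the difference from marrow itself differed between Cd44 probes was not tested. Mast cell and basophil markers, 8 genes, summed to 6.71 to 7.37 times the array's 75th percentile in G-CSF blood, 6.2 to 15.5 times in AMD3100 blood, 6.51 to 8.22 times in CWHM-823+tGro-b blood and 4.09 to 5.67 times in PBS marrow, and their part in the Cd44 values was not tested.

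**Figure D2:**
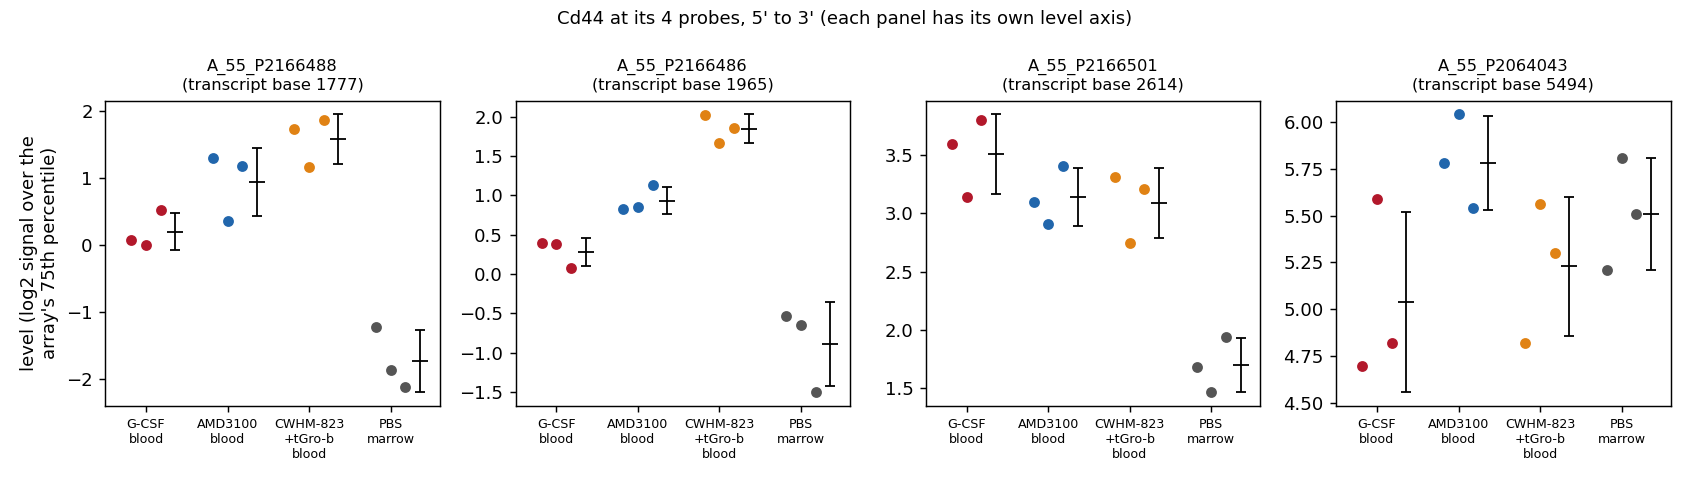
Level of Cd44 on each array (vertical axis, log2 signal over the array's 75th percentile, scaled separately in each panel) at its 4 probes from 5′ to 3′, with the mean and SD of 3 arrays beside the points. At the first 3 probes all 9 blood arrays lie above the 3 marrow arrays, and at A_55_P2064043 the blood arrays lie on both sides of them.

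Between blood groups, Cd44 A_55_P2166486 was lower in G-CSF blood than in CWHM-823+tGro-b blood, with a difference of -1.56 ± 0.28 (SE, limma adjusted p = 0.0244). This call was lost without any 1 of the 3 G-CSF or 3 CWHM-823+tGro-b arrays except G-CSF blood replicate 2 (differences of -1.66 to -1.46). At A_55_P2166488 the same comparison gave -1.39, which did not pass (limma adjusted p = 0.125) and passed with the slide as a block (limma adjusted p = 0.0339). G-CSF blood over AMD3100 blood gave -0.75 at A_55_P2166488, -0.65 at A_55_P2166486 and -0.75 at A_55_P2064043, none of which passed (limma adjusted p = 0.0984, 0.0869 and 0.0768), and all 3 passed with the slide as a block (limma adjusted p = 0.0328, 0.0438 and 0.00809). Under quantile normalization A_55_P2064043 gave -0.38 (limma adjusted p = 0.384), which did not pass with the block either (limma adjusted p = 0.0754). CWHM-823+tGro-b blood over AMD3100 blood gave 0.92 at A_55_P2166486 (limma adjusted p = 0.147, and 0.0399 with the slide as a block). At A_55_P2166501 the differences between blood groups were -0.05 to 0.42. The times of treatment differ between G-CSF and AMD3100 and none is stated for CWHM-823+tGro-b, so each comparison is of whole regimens.

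The genes whose levels were most like Cd44 A_55_P2166488 over the 12 arrays were Rgs2 (r = 0.986), Nfkbid (r = 0.982), Rasgef1b (r = 0.977), Egr3 (r = 0.972) and Nr4a1 (r = 0.964). Nr4a1, an orphan nuclear receptor induced within a short time of cell stimulation, averaged 2.90 in G-CSF blood, 3.02 in AMD3100 blood, 4.17 in CWHM-823+tGro-b blood and -0.67 in PBS marrow. As for this Cd44 probe, by which Nr4a1 was picked, CWHM-823+tGro-b blood was highest and PBS marrow lowest.

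Selplg, which encodes the main P-selectin ligand of leukocytes, was above background on 12 of 12 arrays at both probes. A_55_P1976212 (chr5:114269206-114269265, minus strand) read 3.12, 2.72 and 2.69 in G-CSF blood, 2.35, 1.99 and 2.46 in AMD3100 blood, 2.84, 2.29 and 2.26 in CWHM-823+tGro-b blood and 2.57, 2.01 and 2.16 in PBS marrow. The G-CSF arrays lay above those of AMD3100 blood and of marrow. The difference of G-CSF blood over PBS marrow was 0.60 (limma adjusted p = 0.242) and that over AMD3100 blood was 0.58 (limma adjusted p = 0.104), and both passed with the slide as a block (limma adjusted p = 0.0412 and 0.0162). With quantile normalization and the block, the difference from marrow was 0.43 and did not pass (limma adjusted p = 0.100), and that from AMD3100 blood was 0.46 and passed (limma adjusted p = 0.0368). A_51_P131358, for which no mm9 position is given, read 2.85, 2.24 and 2.24 in G-CSF blood, 2.25, 1.26 and 1.62 in AMD3100 blood, 2.81, 1.95 and 1.69 in CWHM-823+tGro-b blood and 2.22, 1.71 and 1.69 in PBS marrow. Replicate 1 was the highest array of every group at this probe. G-CSF blood over AMD3100 blood was 0.73 (limma adjusted p = 0.119, and 0.00748 with the slide as a block), and G-CSF blood over PBS marrow was 0.57 (limma adjusted p = 0.365). AMD3100 and CWHM-823+tGro-b blood differed from marrow by -0.17 to 0.27 over both probes, and none of these passed.

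Fut7 and Fut4 encode alpha-1,3-fucosyltransferases that add the fucose of sialyl Lewis x. Fut7 was higher in G-CSF blood than in AMD3100 blood at the probe that was above background on all arrays. Fut7 A_51_P445473 (chr2:25281802-25281861, plus strand) read 1.64, 1.60 and 1.73 in G-CSF blood, 1.33, 0.60 and 0.80 in AMD3100 blood, 0.96, 0.81 and 0.63 in CWHM-823+tGro-b blood and 1.52, 1.49 and 1.22 in PBS marrow. The G-CSF arrays lay above all others. Fut7 A_51_P445473 rose by 0.75 ± 0.24 (SE) in G-CSF blood over AMD3100 blood (limma adjusted p = 0.0377). Fut7 A_55_P2182675 (chr2:25281521-25281580, plus strand) read -3.02, -3.37 and -2.56 in G-CSF blood, -4.56, -4.96 and -3.56 in AMD3100 blood, -4.75, -3.71 and -3.85 in CWHM-823+tGro-b blood and -3.15, -3.08 and -3.12 in PBS marrow. It was above background on all G-CSF and marrow arrays, on 1 of 3 AMD3100 arrays and on 2 of 3 CWHM-823+tGro-b arrays. Its difference of 1.38 in G-CSF blood over AMD3100 blood (limma adjusted p = 0.0241) is thus against a level mostly not above background. Over PBS marrow, it differed by -1.25 in AMD3100 blood (limma adjusted p = 0.118, and 0.0372 with the slide as a block) and by 0.13 in G-CSF blood (limma adjusted p = 0.833).

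Fut4 went the other way in that comparison at 1 of its 2 probes. A_55_P2095609 (chr9:14555189-14555248, minus strand) read -2.51, -2.02 and -2.34 in G-CSF blood, -1.14, -1.36 and -1.22 in AMD3100 blood, -1.54, -1.44 and -0.49 in CWHM-823+tGro-b blood and -1.75, -1.25 and -1.92 in PBS marrow. The G-CSF arrays lay below all others. The probe fell by 1.05 in G-CSF blood over AMD3100 blood (-1.05 ± 0.31, SE, limma adjusted p = 0.0287). The other Fut4 probe, A_52_P200458 (chr9:14553224-14553283, minus strand), was above background on 11 of 12 arrays and ranged from -3.73 to -2.33, with a difference of 0.13 in the same comparison (limma adjusted p = 0.746, and 0.78 with limma adjusted p = 0.110 under quantile normalization). In G-CSF blood over PBS marrow it gave -0.03, and 0.42 under quantile normalization, and neither passed (limma adjusted p = 0.960 and 0.562). Under quantile normalization neither Fut4 A_55_P2095609 (-0.67, limma adjusted p = 0.105) nor Fut7 A_51_P445473 (0.59, limma adjusted p = 0.0889) passed. Fut7 A_55_P2182675 passed under it (1.97, limma adjusted p = 0.0166), but not with a normexp background correction (0.44, limma adjusted p = 0.249). With the same correction Fut4 A_55_P2095609 gave -0.66 (limma adjusted p = 0.0692).

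St3gal4, a sialyltransferase that caps selectin ligands, was lower in G-CSF blood than in AMD3100 blood. Its probe A_52_P316474 (chr9:34854434-34854493, minus strand) read -1.72, -1.21 and -1.23 in G-CSF blood, -0.64, 0.21 and -0.30 in AMD3100 blood, -1.37, -0.81 and -0.38 in CWHM-823+tGro-b blood and -1.30, -0.52 and -0.71 in PBS marrow. G-CSF and AMD3100 arrays did not overlap, and both overlapped with marrow. The probe fell by 1.15 in G-CSF blood over AMD3100 blood (-1.15 ± 0.33, SE, limma adjusted p = 0.0279), and by 0.98 under quantile normalization (limma adjusted p = 0.0431). Over PBS marrow the differences were -0.55 in G-CSF blood, 0.60 in AMD3100 blood and -0.01 in CWHM-823+tGro-b blood, and none passed.

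Gcnt1 encodes the enzyme that starts the core 2 branch of O-glycans, on which PSGL-1 carries its selectin-binding sugar. Its 3 probes did not all pass in the same comparisons, and whether they differed from each other was not tested. A_52_P21550 (chr19:17400787-17400846, minus strand) read -1.63, -2.16 and -0.91 in G-CSF blood, -3.29, -4.87 and -2.36 in AMD3100 blood, -2.67, -3.02 and -1.80 in CWHM-823+tGro-b blood and -1.85, -1.69 and -1.41 in PBS marrow. AMD3100 arrays lay below G-CSF and marrow arrays, and AMD3100 replicate 2, the lowest, was not above background. Gcnt1 A_52_P21550 rose by 1.94 ± 0.56 (SE) in G-CSF blood over AMD3100 blood (limma adjusted p = 0.0266). Without AMD3100 replicate 2 the difference was 1.26 (limma adjusted p = 0.0844), and without AMD3100 replicate 1 it was 2.05 (limma adjusted p = 0.0575). The probe differed by -1.86 in AMD3100 blood over PBS marrow (limma adjusted p = 0.110, and 0.0153 with the slide as a block). Gcnt1 A_55_P2084723 (chr19:17403599-17403658, minus strand) was above background on 3 of 3 arrays in G-CSF blood, 1 of 3 in AMD3100 blood, 1 of 3 in CWHM-823+tGro-b blood and 2 of 3 in PBS marrow, so it entered the fit only through the group where it was highest. It read -2.42, -3.01 and -2.66 in G-CSF blood, -3.80, -4.02 and -3.18 in AMD3100 blood, -3.91, -4.31 and -3.75 in CWHM-823+tGro-b blood and -2.79, -3.45 and -3.95 in PBS marrow, and no difference between groups is drawn from it. Gcnt1 A_55_P2084739 (chr19:17403360-17403419, minus strand) was above background on 12 of 12 arrays, ranged from -2.03 to -1.04, and differed by 0.26 in G-CSF blood over AMD3100 blood (limma adjusted p = 0.481).

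**Figure D3:**
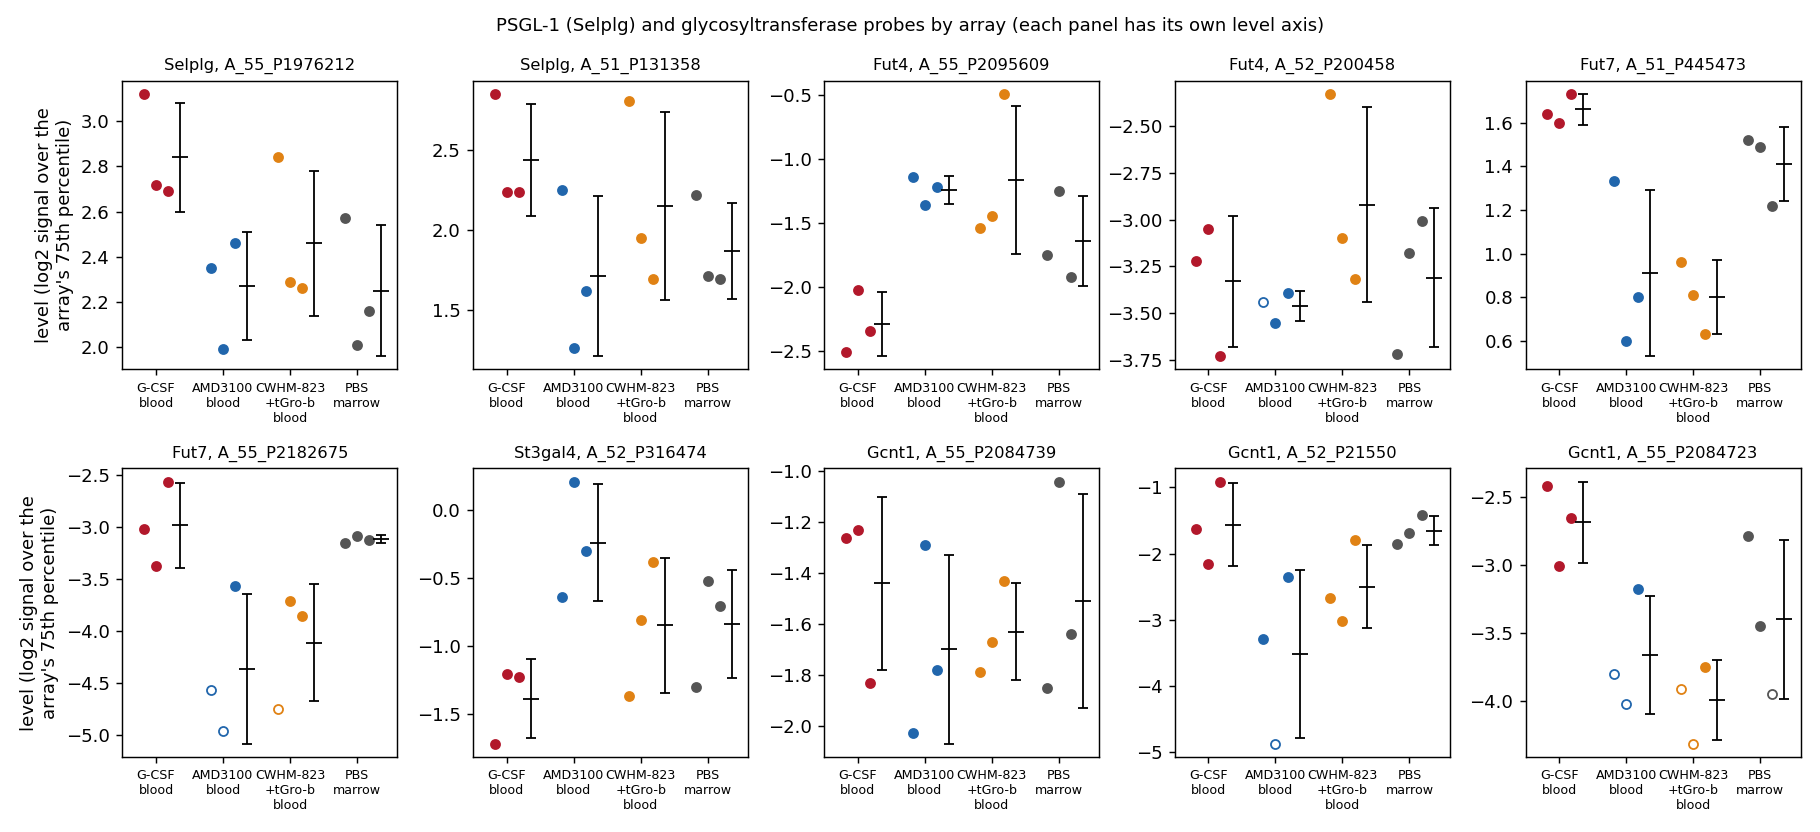
Level on each array (vertical axis, log2 signal over the array's 75th percentile, scaled separately in each panel) of the Selplg, Fut4, Fut7, St3gal4 and Gcnt1 probes, with the mean and SD of 3 arrays, and open points where a probe was not above background. G-CSF arrays are the lowest for Fut4 A_55_P2095609 and the highest for Fut7 A_51_P445473.

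Over the 14 tested probes other than that of Selp, 2 rose and 0 fell in G-CSF blood over PBS marrow, 3 rose and 0 fell in AMD3100 blood over PBS marrow, and 2 rose and 0 fell in CWHM-823+tGro-b blood over PBS marrow. All of these were Cd44 probes. Of all 29495 probes, 1.81% passed in the G-CSF, 1.72% in the AMD3100 and 0.39% in the CWHM-823+tGro-b comparison. With the slide as a block, the member counts became 4 rises, 3 rises with 2 falls, and 3 rises, while 18.4%, 13.6% and 1.07% of all probes passed. In G-CSF blood over AMD3100 blood, 4 of the 14 rose, or 3 without the Gcnt1 probe that entered only through G-CSF blood, and 2 fell, where 30.1% of all probes passed (13.2% higher and 16.9% lower), so the members' share was of the order of the background. With the slide as a block 6 rose, that Gcnt1 probe among them, and 5 fell, against 60.5% of all probes (7203 of 29495 higher and 10650 lower). In G-CSF blood over CWHM-823+tGro-b blood 1 probe passed (0.658% of all probes), and 2 with the slide as a block (2.06% of all probes). With limma, 0 passed in CWHM-823+tGro-b blood over AMD3100 blood (0.207% of all probes), and 1 passed there with the slide as a block (16.2% of all probes). B cell markers summed to 4.15 to 4.36 times the array's 75th percentile in G-CSF blood and 5.9 to 6.15 times in AMD3100 blood, and T and NK cell markers to 5.15 to 6.64 times and 6.58 to 8.47 times in those groups. The part of such cells in these calls was not tested. The 6 calls of G-CSF blood over AMD3100 blood include that of Gcnt1 A_55_P2084723, and they depended on single arrays. Of them, 0 were left without G-CSF blood replicate 1, without G-CSF blood replicate 3 or without AMD3100 blood replicate 2. Without AMD3100 blood replicate 1, 2 were left. Over all probes, 8873 passed in that comparison, and 1848, 2812, 3149 and 3629 passed without those same arrays. Median differences were taken over the 14 probes, the same Gcnt1 probe included. They were 0.19 in G-CSF, -0.07 in AMD3100 and 0.10 in CWHM-823+tGro-b blood over PBS marrow. Between blood groups they were 0.32 in G-CSF over AMD3100, 0.24 in G-CSF over CWHM-823+tGro-b and 0.14 in CWHM-823+tGro-b over AMD3100 blood.

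**Figure D4:**
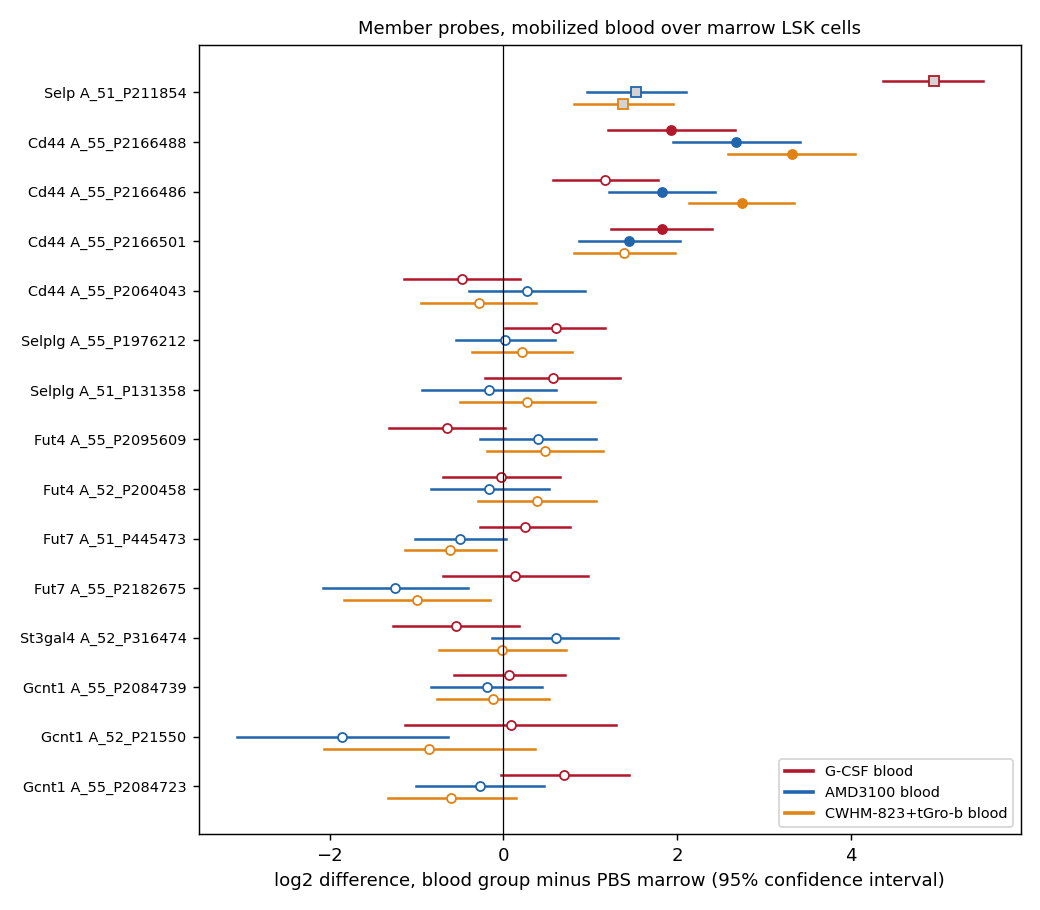
Log2 difference of each blood group minus PBS marrow (horizontal axis, points with 95% confidence intervals) for the 15 probes that entered the fit. Filled circles passed the limma test, open circles did not, and grey squares (Selp) are a description with no test. The intervals of Selp do not allow for the choice of the gene on such a difference. Selp in G-CSF blood lies farthest from 0, at 4.95, and all filled circles are Cd44 probes.

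The rest of the machinery of selectin ligands was followed in 76 other genes, of which 68 were tested by 88 probes. In G-CSF blood, 3 of the 88 probes rose over PBS marrow and 0 fell, where 1.81% of all tested probes passed. They included Fut8, the core fucosyltransferase of N-glycans, and Galnt6, an enzyme that starts O-glycans. In AMD3100 blood over PBS marrow, 1 of the 88 probes rose and 0 fell (1.72% of all tested probes passed), and 0 passed without AMD3100 blood replicate 1 or any 1 marrow array. Fut8 read 1.84, 1.67 and 1.58 in G-CSF blood, 0.52, 0.13 and 0.43 in AMD3100 blood, 0.97, 0.56 and 0.74 in CWHM-823+tGro-b blood and 0.47, 0.51 and 0.4 in PBS marrow. The G-CSF arrays lay above all others. Fut8 rose by 1.24 in G-CSF blood over marrow (limma adjusted p = 0.0123). Galnt6 rose by 1.00 at A_55_P1975155 (limma adjusted p = 0.0437). Its other probe, A_52_P377160, was above background on 3 of 3 G-CSF and 2 of 3 marrow arrays. In AMD3100 blood it was so on 1 of 3 arrays and in CWHM-823+tGro-b blood on 0 of 3. That probe entered the fit only through the group where it was highest, and no difference between groups is drawn from it. Without G-CSF blood replicate 1 or PBS marrow replicate 2, 1 of the 88 passed in G-CSF blood over marrow, and without G-CSF blood replicate 2, 5 passed. With limma, 0 of the 88 probes passed in CWHM-823+tGro-b blood over marrow (0.39% of all tested probes), and 2 passed with the slide as a block (1.07% of all tested probes).

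In G-CSF blood over AMD3100 blood, 30 of the 88 probes rose and 4 fell, where 13.2% of all probes rose and 16.9% fell. Galnt6 A_55_P1975155 read 1.99, 1.77 and 2.12 in G-CSF blood and 0.26, 0.35 and 0.04 in AMD3100 blood, a rise of 1.75 ± 0.22 (SE, limma adjusted p = 0.00208). Lamp1, a lysosomal membrane protein that can carry selectin ligands, rose by 1.52 and Fut8 by 1.34 (limma adjusted p = 0.00472 and 0.00507). Spn, which encodes the sialomucin CD43, rose by 1.24 at A_52_P186033 (limma adjusted p = 0.00877). Its other probe, A_55_P1973573, gave 0.77 and did not pass (limma adjusted p = 0.0699, and 0.0219 with the slide as a block). The 4 falls were at Chst2, a sulfotransferase of selectin ligands (fell by 1.45), Podxl2, the mucin endoglycan (fell by 1.91), and both probes of the mucosal addressin gene Madcam1 (fell by 1.00 and 1.56), with limma adjusted p = 0.00847, 0.0161, 0.0189 and 0.0364 in that order. Podxl2 was above background on 2 of 3 G-CSF arrays and read -4.69 on G-CSF blood replicate 3. Its differences within the 3 slides were -1.50, -1.17 and -3.05. By role, 12 of 32 probes of O-glycan and lactosamine synthesis rose and 0 fell, 6 of 15 of sialylation rose and 0 fell, and 4 of 9 of fucosylation rose and 0 fell. In the group that holds the other selectin ligands, 4 of 14 rose and 3 fell, and among sulfation genes 1 of 8 rose and 1 fell. Of the cytoplasmic partners of PSGL-1 and CD44, 3 of 10 rose and 0 fell. The median difference over the 88 probes was 0.60, against -0.24 over all tested probes. With the slide as a block 46 rose and 11 fell, where 60.5% of all probes passed (7203 of 29495 higher and 10650 lower). The 46 include Galnt6 A_52_P377160, which entered the fit only through G-CSF blood. Podxl A_52_P380263 entered in the same way and did not pass. Fut2 A_52_P623226 entered only through AMD3100 blood, where it was highest, and no difference between groups is drawn from it. These probes are among the 88 of the median, and the list was not counted without such probes. The number of calls, 34, was 8 without G-CSF blood replicate 1, 13 without G-CSF blood replicate 3, 16 without AMD3100 blood replicate 1 and 11 without AMD3100 blood replicate 2.

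**Figure D5:**
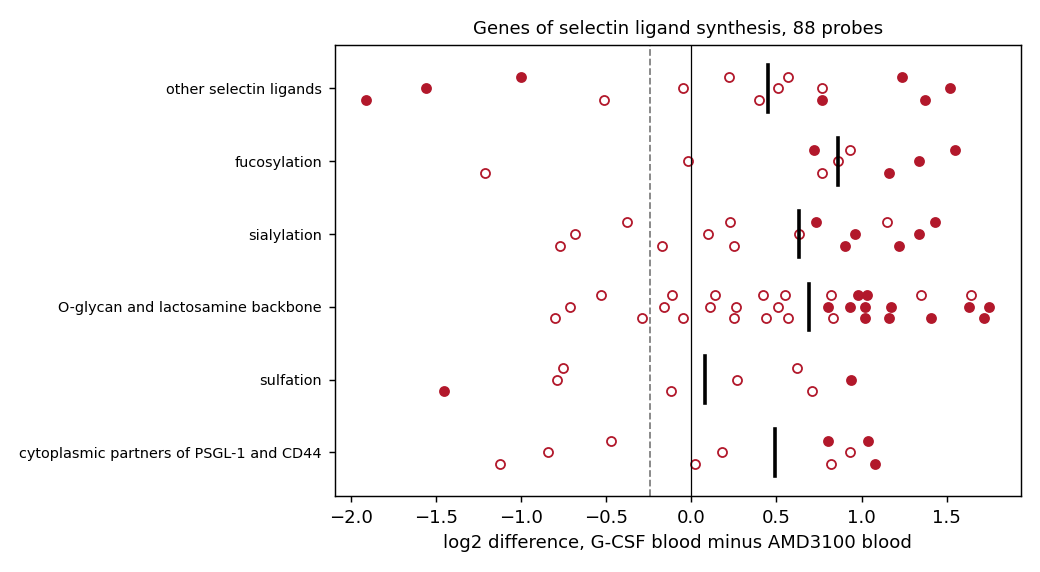
Log2 difference of G-CSF blood minus AMD3100 blood (horizontal axis) for 88 probes of 6 groups of selectin ligand genes. Filled points passed the limma test, black bars are the median of each group, and the dashed line is the median of all tested probes, -0.24. The medians of all 6 groups lie above that line, from 0.08 for sulfation to 0.86 for fucosylation.

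In G-CSF blood over CWHM-823+tGro-b blood, 1 of the 88 probes rose and 1 fell, where 0.658% of all probes passed. Galnt6 A_55_P1975155 rose by 1.31 (limma adjusted p = 0.0186) and Chst2 fell by 1.46 (limma adjusted p = 0.0369). Neither was called without G-CSF blood replicate 1 or 3 or without CWHM-823+tGro-b blood replicate 2 or 3, and 1 probe was called without CWHM-823+tGro-b blood replicate 1, any 1 AMD3100 array or PBS marrow replicate 2. Chst2 read -1.90, -1.19 and -1.94 in G-CSF blood and -0.07, -0.16 and -0.43 in CWHM-823+tGro-b blood. In CWHM-823+tGro-b blood over AMD3100 blood 0 of 88 passed with limma. With the slide as a block 14 rose and 2 fell, where 16.2% of all probes passed (2546 of 29495 higher and 2229 lower).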

How the data were processed

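Per the labels' protocols, RNA was amplified with the WTA2 kit and labelled with Cy5. The deposited scanner files hold spot intensity, which the authors obtained with Agilent Feature Extraction 11.5.1.1 (per the file headers and the submitters' processing notes). It subtracted background, detrended signals and put surrogates in place of very low ones. The authors' second table, a normalized linear intensity for 30354 probes, served as an alternative. Its normalization tool is not given in the sources used here.

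Of 43020 non-control spots, outliers were left out and spots of a probe were averaged. Log2 of the deposited signal minus each array's 75th percentile (signals of 1146 to 2724) was analysed. The 29641 probes well above background throughout 1 group or more were kept, and 146 with only outlier spots on an array were dropped. limma 3.58.1 (R 4.3.3) fitted 1 mean per group to all 29495 probes, with two-sided tests adjusted by Benjamini-Hochberg over all probes, and 8 residual and 3.87 prior degrees of freedom. The code was tested on simulated data. Each of 3 slides held the arrays of 1 replicate number. In deviations from the group means, the 18 same-numbered pairs correlated at r = 0.242 to 0.598, against -0.435 to 0.0327 for the 36 others, so the slide was also fitted as a block.

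Members, lists and tests were chosen with earlier results of these data known, so their p-values are not independent support. Every member probe is named. Of the other pathway genes, up to 4 probes per direction with the smallest adjusted p in a comparison are named. A second probe is given for Galnt6, Spn and Madcam1. Alternatives were quantile normalization, normexp (offset of 50), the authors' table, other filters on dim probes, 1 probe per gene, the slide as a block and each array left out. Quantile normalization together with the block was added after seeing the data. Some results of the pathway list and most probe sequences are not reported here.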

Additional observations from a re-analysis of the deposited data

How the results depend on the processing

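No result changed direction with its call under any alternative run. Of 84 tested differences of member probes, 81 kept their side of the threshold under quantile normalization, 78 under normexp, 81 with the authors' table, 83 without a filter on dim probes and 72 with the replicate block, where the other 12 passed only then. The replicate block raised the calls of members to 4 (G-CSF blood over PBS marrow), 5 (AMD3100 blood over PBS marrow) and 11 (G-CSF over AMD3100 blood). They became 2 in G-CSF over CWHM-823+tGro-b blood and 1 in CWHM-823+tGro-b over AMD3100 blood. The 11 include Gcnt1 A_55_P2084723, which entered the fit only through G-CSF blood. Pathway list calls rose to 24, 12, 2, 57, 5 and 16 in the 6 comparisons. The 24 and the 57 include Galnt6 A_52_P377160, which entered in the same way. Quantile normalization with the replicate block, chosen after seeing the data, gave 3, 5, 3, 9, 2 and 1 member calls in the 6 comparisons, and 16, 19, 2, 53, 5 and 23 pathway calls. With the replicate block alone, 60.5% of all probes passed in G-CSF over AMD3100 blood and 16.2% in CWHM-823+tGro-b over AMD3100 blood. For G-CSF over AMD3100 blood, 3 member probes passed with normexp, with the authors' table, with probes above background on all 12 arrays and with 1 probe per gene, and 22 pathway probes with normexp. With 1 probe per gene, 0 members passed over marrow in any blood group and 0 in G-CSF over CWHM-823+tGro-b blood, since the Cd44 probe kept, that with the highest mean signal, is A_55_P2064043. For that comparison normexp gave 2 member calls, and the authors' table and no filter each gave 1 pathway call. For AMD3100 blood over PBS marrow, 2 pathway probes passed with quantile normalization and with the authors' table and 0 without a filter. For G-CSF blood over PBS marrow, 5 passed with probes above background on all arrays. Shares of all probes are not given for the alternatives in normalization, background correction and filter. Their counts are therefore not read as results about the members or the pathway genes.

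Leaving out each array in turn, the member calls ranged from 1 to 2 (G-CSF blood over PBS marrow), 2 to 4 (AMD3100 blood over PBS marrow), 0 to 7 (G-CSF over AMD3100 blood) and 0 to 1 (G-CSF over CWHM-823+tGro-b blood). They were 2 throughout in CWHM-823+tGro-b blood over PBS marrow and 0 throughout in CWHM-823+tGro-b over AMD3100 blood. The pathway calls ranged from 1 to 5, 0 to 1, 0 to 0, 8 to 40, 0 to 2 and 0 to 0. These are in the order G-CSF, AMD3100 and CWHM-823+tGro-b blood over PBS marrow, G-CSF over AMD3100 blood, G-CSF over CWHM-823+tGro-b blood and CWHM-823+tGro-b over AMD3100 blood. For G-CSF over AMD3100 blood, the calls among all probes ranged from 1848 to 12008 in the same way. The member and pathway ranges of that comparison are therefore not read as results about these genes. Of 1008 tested member differences with 1 array left out, 965 kept their side of the threshold, 40 no longer passed and 3 passed only then. The cause was not tested. Probes near background limit the enzyme results: Fut7 A_55_P2182675 and Gcnt1 A_55_P2084723 were above background on 9 and 7 of 12 arrays.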
